A study of Sus scrofa with 2 samples.

Results

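Interferon-stimulated genes were examined in Yorkshire endometrium at day 18 of gestation (YK18), when the conceptus is attaching to the uterine lining. The genes were chosen by name, as 51 pig gene symbols, and a listed row was found for 38 of them among the 11071 named genes of the table. The libraries came from 2 slaughtered pigs of 1 commercial herd, bred by artificial insemination, and each pig gave 1 RNA-seq library of total RNA from the endometrium of flushed uterine horns (replicate 1 and replicate 2). Meishan endometrium and Yorkshire endometrium of day 32 were not analysed here, and with a single condition no test was made. The values are RPKM, the reads of a transcript per kilobase of its length and per 1000000 reads of the library, summed over the listed rows of a gene. Where a pair of values is given, replicate 1 stands first.

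Interferons are secreted proteins that bind receptors on nearby cells. Type I interferons bind the pair IFNAR1 and IFNAR2, whose kinases JAK1 and TYK2 activate STAT proteins, and STAT2 joins IRF9 in a complex (ISGF3) that binds the promoters of interferon-stimulated genes. Interferon gamma acts through its own receptor on an overlapping set of genes. Some of the products act on viruses directly (effectors), others recognise foreign nucleic acid or antibody-coated virus (sensors), and others pass on or restrain the signal (regulators). In pigs the trophectoderm of the conceptus is known to secrete interferon gamma and interferon delta around attachment, and the endometrium to respond with this gene programme in the absence of a virus.

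Of the 38 listed genes, 29 were above 0 RPKM in both libraries, 9 were listed at 0 in both and 0 were above 0 in 1 library only. Of all named genes 26.6% were listed at 0 in both libraries, against 23.7% of the listed interferon-stimulated genes. A value of 0 can be a failed estimate, and widely used genes such as STAT3 and MYD88 were at 0 too, so such a gene is described only as listed at 0. A further 13 symbols matched no listed row and were not analysed here, namely OAS1, IFIT5, ADAR, IFITM2, IFI6, SAMHD1, CMPK2, HERC5 and XAF1 among the effectors and IFNAR1, PARP14, DTX3L and SP100 among the regulators.

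The library totals behind the RPKM, worked out from the steps of the low values, were 7466979 reads in replicate 1 and 7023108 reads in replicate 2. Of the markers with a listed row, 5 of 6 epithelial, 4 of 5 stromal and 3 of 3 endothelial ones were above 0 in both libraries. The epithelial marker EPCAM was at 5106 and 5128 RPKM, but others were less even. KRT18 was at 1626 and 1064 RPKM, and KRT19 went the other way, at 267.8 and 522.1 RPKM. The stromal list, led by COL3A1 at 67098 and 42857 RPKM, summed to 69452 and 44378 RPKM. Of its 4 markers with a mean of at least 1 RPKM, 2 were higher in each replicate. KRT8 was listed at 0. Of 4 gland markers, ACP5 was at 232.7 and 356.4 RPKM, FOXA2 at 0.183 and 0.584 RPKM, and SPP1 and PAEP were listed at 0. The 7 skeletal muscle genes of a marker list summed to 460.8 and 14.9 RPKM. The part of these cells in the values below was not tested.

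The listed interferon-stimulated genes stood high among the named genes. They were chosen with earlier results of these data known, and the part of this choice in their standing was not tested. Their median level was 221.5 and 235.9 RPKM, where the median of all named genes was 2.82 and 3.27 RPKM, with genes listed at 0 counted in. Among genes with a mean of at least 1 RPKM the medians were 506.7 and 518.7 RPKM for 27 members and 45.7 and 50.9 RPKM for 6476 named genes. In both libraries, 20 of the 38 reached 100 RPKM and 10 reached 1000 RPKM, against 22.3% and 4.25% of all named genes. The median member lay at percentile 83.7 of the named genes. By the minimum reads described below, in place of RPKM, it lay at percentile 78.0, with 87.3 for effectors, 72.9 for sensors and 70.2 for regulators. By group, the median level was 347.9 and 368.1 RPKM for the 20 listed effectors, 76.3 and 84.8 RPKM for the 5 sensors and 42.4 and 60.2 RPKM for the 13 listed regulators, again with those listed at 0. Under the same filter the medians were 1055 and 1021 RPKM for 15 effectors, 585.2 and 529.9 RPKM for 3 sensors and 452 and 484.6 RPKM for 9 regulators. Together the genes made up 1.45% and 1.60% of the RPKM of all rows. In a whole tissue, more cells of a type and more RNA per cell cannot be told apart.

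**Figure D1:**
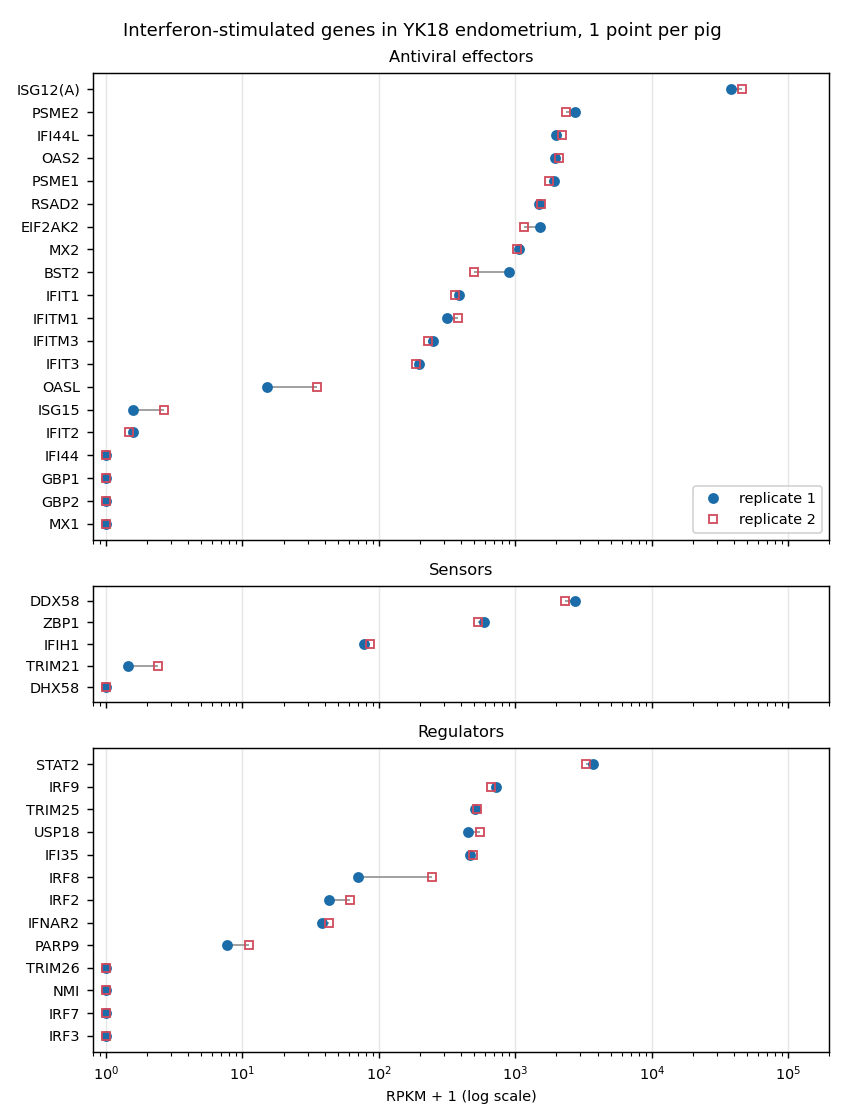
RPKM + 1 on a log scale of the 38 listed interferon-stimulated genes in the 2 YK18 pigs, with filled circles for replicate 1, open squares for replicate 2 and a line between them. ISG12(A) stands alone at 37755 and 45807 RPKM, most genes lie close together in both pigs, and 9 genes sit at the left edge because they are listed at 0.

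A single gene held most of the summed RPKM. ISG12(A), a small hydrophobic protein of the IFI6 and IFI27 family, was at 37755 and 45807 RPKM, a mean of 41781 ± 5694 RPKM (SD, n = 2). It ranked 3 in replicate 1 and 1 in replicate 2 among the 11071 named genes. It made up 61.0% and 66.9% of the summed RPKM of the interferon-stimulated genes, 49.3% and 54.6% of their minimum reads, and at least 0.476% and 0.577% of all reads of the libraries. Replicate 2 was 1.21-fold above replicate 1.

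The order of levels between genes depends on the length by which the reads were divided. The smallest length that gave whole reads in both libraries was under 300 nt for 16 of the 26 members with 1 row above 0, with a range of 8 to 1527 nt. The lengths used may be whole multiples of these, and the reads with them, so reads are given as minimum numbers. The smallest length was 126 nt for ISG12(A), with 35521 and 40535 reads, 1049 nt for IFIT1 and 1527 nt for IFIT3. The ratio of a single row between the pigs does not depend on the length, except through the 1 added to the RPKM of low genes. Ordered by minimum reads over the library total, RSAD2 came second to ISG12(A) and OAS2 next, IFIT3 moved from place 20 to place 9 and IFIT1 from place 17 to place 7, while PSME1, with a smallest length of 11 nt, moved from place 7 to place 21.

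Among the effectors, OAS2, RSAD2 and EIF2AK2, whose proteins act on viral RNA, had high RNA levels in both pigs. OAS2, which makes the short oligoadenylates that trigger the decay of RNA, was at 1945 and 2083 RPKM, or 2014 ± 97.4 RPKM (SD, n = 2). RSAD2 (viperin), which makes a nucleotide that ends viral RNA chains, was at 1476 and 1546 RPKM. EIF2AK2 (PKR), the kinase that stops translation when it binds double-stranded RNA, was at 1505 and 1153 RPKM. Its smallest length was 50 nt, with a minimum of 562 and 405 reads, and by minimum reads it moved from place 9 to place 17. For OAS2 and RSAD2 the pigs differed by less than 25%, and EIF2AK2 was 1.31-fold higher in replicate 1. The related OASL, an OAS family protein that enhances RIG-I signalling, was much lower, at 14.2 and 34.0 RPKM. OAS2 thus exceeded OASL 137-fold in replicate 1 and 61.3-fold in replicate 2.

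The IFIT proteins bind viral RNA ends and lie next to each other in the genome, in the order IFIT2, IFIT3, IFIT1 and IFIT5 with no protein-coding gene between them in the Sscrofa11.1 annotation. IFIT1 was at 383.6 and 357.5 RPKM and IFIT3, which stabilises it, at 195.8 and 185.5 RPKM. Their ratio was 1.96 in replicate 1 and 1.93 in replicate 2. IFIT2 was at 0.567 and 0.482 RPKM, from 5 and 4 reads. The IFIT genes next to each other thus comprised a pair above 100 RPKM and one below 1 RPKM, in both pigs.

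Several other neighbours held genes listed at 0, whose levels are not known. MX2, a dynamin-like GTPase that traps viral particles, was at 1055 and 1021 RPKM, and its neighbour and relative MX1 was listed at 0 in both. IFI44L was at 1998 and 2206 RPKM, and its neighbour IFI44 was listed at 0 in both. The neighbours GBP1 and GBP2, guanylate-binding proteins of the interferon gamma response, were both listed at 0. How reads shared by related genes were counted is not given in the sources used here, so the levels within each family are uncertain.

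Genes of membrane proteins that block the entry or exit of enveloped virus were also expressed. IFITM1 was at 312.1 and 378.6 RPKM and its neighbour IFITM3 at 247.2 and 229.4 RPKM, so IFITM1 was the higher one in both pigs, 1.26-fold and 1.65-fold. BST2 (tetherin), which holds budding virus at the cell surface, was at 889.7 and 495.3 RPKM. It was the effector with the largest difference toward replicate 1, 1.80-fold.

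PSME1 and PSME2 form the ring that opens the proteasome for the making of antigen peptides. PSME2 was at 2738 and 2363 RPKM and PSME1 at 1924 and 1760 RPKM. In RPKM, PSME2 exceeded PSME1 1.42-fold in replicate 1 and 1.34-fold in replicate 2. In minimum reads the ratio was 9.58 and 9.03, since the smallest length for PSME1 was 11 nt and for PSME2 74 nt. In the annotation PSME2 lies next to IRF9, with 1 protein-coding gene between PSME2 and PSME1.

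ISG15, a ubiquitin-like protein that is joined to other proteins, was low. It was at 0.581 and 1.65 RPKM, from at least 3 and 8 reads at a smallest length of 691 nt. The genes of the enzymes that attach ISG15 were far higher. UBA7, its activating enzyme, was at 1179 and 1222 RPKM, UBE2L6, its conjugating enzyme, at 902.8 and 1046 RPKM. USP18, which removes it and restrains the type I receptor, was at 452 and 552 RPKM, but from a minimum of 27 and 31 reads at a smallest length of 8 nt. HERC5, its ligase in humans, matched no row.

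Of the sensors, DDX58 (RIG-I), which recognises the ends of viral RNA, led with 2729 and 2315 RPKM. IFIH1 (MDA5), which recognises long double-stranded RNA, was at 76.3 and 84.8 RPKM. DDX58 exceeded IFIH1 35.8-fold and 27.3-fold. DHX58 (LGP2), the third protein of this helicase family, was listed at 0 in all 3 of its rows. ZBP1, a sensor of Z-form nucleic acid that can start cell death, was at 585.2 and 529.9 RPKM. TRIM21, a cytosolic antibody receptor, was at 0.446 and 1.42 RPKM, from 1 and 3 reads, with 2 of its 3 rows listed at 0. The sensors thus ranged from the fourth place among all listed members to 0, and the order DDX58, ZBP1, IFIH1, TRIM21 was the same in both pigs.

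Among the regulators, the ISGF3 genes STAT2 and IRF9 were highest in RPKM, while in minimum reads TRIM25, with 2448 and 2357, lay above IRF9, with 877 and 756. STAT2 was at 3730.4 and 3299 RPKM, and IRF9 at 725.0 and 664.5 RPKM. STAT2 exceeded IRF9 5.15-fold in replicate 1 and 4.96-fold in replicate 2.

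The ubiquitin ligase TRIM25, which acts on RIG-I, was at 506.7 and 518.7 RPKM, and IFI35, a partner of NMI, at 460.7 and 484.6 RPKM. TRIM25 had the smallest difference between the pigs of all 27 members with a mean of at least 1 RPKM, 1.02-fold. IFNAR2, a receptor subunit, was at 37.1 and 42.0 RPKM. PARP9, which works with the ligase DTX3L, was at 6.73 and 10.2 RPKM from 2 rows, with 10 and 13 reads. NMI and TRIM26 were listed at 0 in both libraries.

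Of the interferon regulatory factors among the members, IRF9 was followed by IRF8 and IRF2. IRF1, which is not a member, had a mean of 834.4 RPKM, against 694.7 RPKM for IRF9. IRF8, a factor of myeloid and B cells, was at 68.9 and 242.3 RPKM. IRF2, which counters IRF1 at interferon-responsive promoters, was at 42.4 and 60.2 RPKM, summed over 6 rows. Of these rows 4 were above 0, each of them higher in replicate 2, and the highest row was at 20.3 and 25.7 RPKM. IRF3 and IRF7, which the RNA sensors activate to induce interferon genes, were listed at 0 in both libraries.

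The levels were close in the 2 pigs for most members. Of the 27 members with a mean of at least 1 RPKM, 20 differed by less than 25% on the log2(RPKM + 1) scale, which is 74.1%, against 55.5% of the 6476 named genes that passed this filter. Differences are smaller at high levels, and among genes with a mean of at least 100 RPKM the shares were 85.7% of 21 members and 76.0% of 2575 named genes. Taken as replicate 2 over replicate 1, the log2 ratio had a median of 0.07 over the members and 0.07 over the named genes. Its SD was 0.51 over the members and 0.67 over the named genes. The median was -0.05 for effectors, -0.14 for sensors and 0.17 for regulators. A single group of 2 pigs gives no test of these differences.

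Only 2 members differed at least 2-fold, both higher in replicate 2. Of the named genes 10.7% differed at least 2-fold, with 7.49% higher in replicate 2 and 3.17% higher in replicate 1, and at a mean of at least 100 RPKM the share was 2.8%. IRF8 was 3.48-fold higher in replicate 2, from 88 and 291 reads. Its ratio in reads per library total was 3.52, with a 95% exact interval of 2.76 to 4.52 that covers counting error only. OASL was 2.30-fold higher in replicate 2, from 28 and 63 reads, with a ratio in reads of 2.39 and an interval of 1.51 to 3.88. For BST2 the ratio was 0.557, with an interval of 0.492 to 0.629. Reads from PCR are not independent molecules, so the true counting error may be larger. The intervals also rest on minimum reads, and would be narrower if the reads were whole multiples of these.

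**Figure D2:**
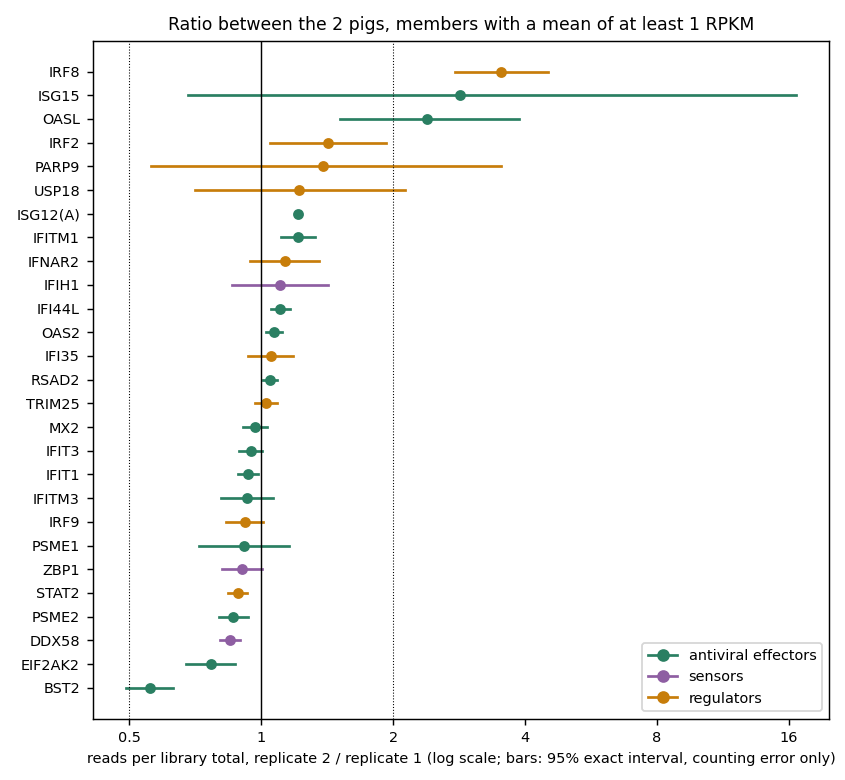
Ratio of reads per library total, replicate 2 over replicate 1 on a log scale, for the 27 interferon-stimulated genes with a mean of at least 1 RPKM, coloured by group, with bars for the 95% exact interval of counting error and dotted lines at 2-fold. IRF8 and OASL lie beyond 2-fold, as does the point of ISG15, whose interval of 0.680 to 16.6, from a minimum of 3 and 8 reads, spans 1.

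Most leukocyte markers were higher in the same pig as IRF8. Of 14 listed leukocyte markers 11 were above 0 in both libraries, and 9 of these 11 were higher in replicate 2, as were 58.0% of all named genes with a mean of at least 1 RPKM. For NKG7, KLRK1 and CSF1R the pigs differed by less than 25%. The list summed to 1215 and 1771 RPKM. PTPRC, the common leukocyte antigen, was at 526.1 and 845.5 RPKM and CD3E, of the T cell receptor complex, at 67.5 and 127.8 RPKM. The macrophage genes did not all move this way, with CSF1R at 104.3 and 110.9 RPKM and CD163 at 34.7 and 20.8 RPKM, and the B cell marker MS4A1 was at 4.71 and 3.34 RPKM. CD3D, CD4 and CD8A were listed at 0 in both. None of the leukocyte markers reached the 2-fold difference, where 10.7% of named genes did, a share too small to set a list of 11 apart. Their part in the level of IRF8 was not tested.

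The order of the members was much the same in both pigs. Of the 29 members above 0, 15 held the same place in both libraries, and the largest change of place was 4. Between neighbours in the order of means, the values of the 2 pigs did not overlap for 16 of 28 pairs and overlapped for 12. The means ran from 0.525 RPKM for IFIT2 to 41781 RPKM for ISG12(A). These counts were not made for all named genes, so whether the order is steadier than that of other genes was not tested. ISG12(A) and STAT2 stood apart from the gene below them. The values of PSME2 and DDX58 overlapped, as did those of IFI44L and OAS2 and of RSAD2 and EIF2AK2. USP18 overlapped both TRIM25 above it and IFI35 below it.

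**Figure D3:**
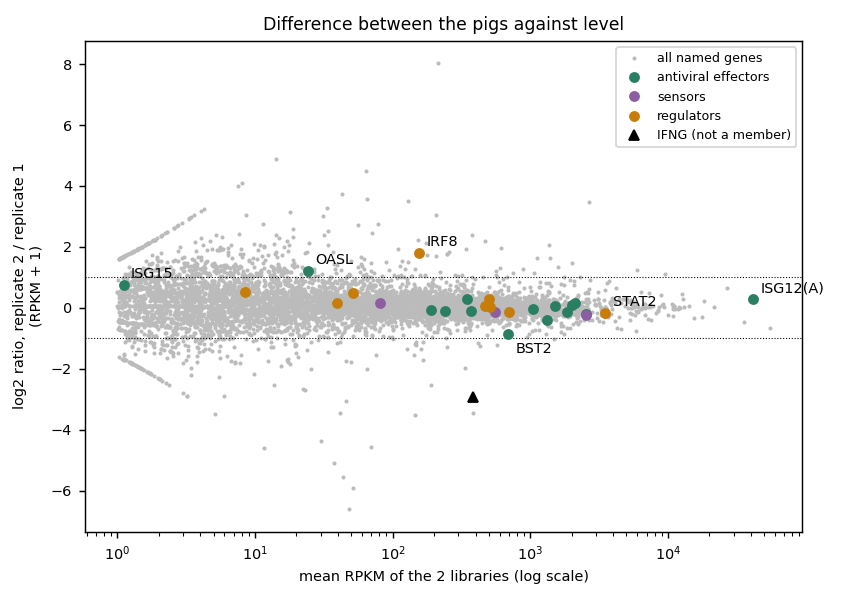
Log2 ratio (replicate 2 over replicate 1, RPKM + 1) against the mean RPKM on a log scale, for the named genes with a mean of at least 1 RPKM in grey and the interferon-stimulated genes in colour, with dotted lines at 2-fold. IRF8 at 1.80 and OASL at 1.20 lie above the upper line, no member lies below the lower one, and IFNG, which is not a member, lies at -2.92.

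The level of IFNG, the gene of interferon gamma, differed between the pigs. It was at 681.6 and 89.1 RPKM, from 911 and 112 reads, a 7.58-fold difference. The interferon gene IFNE was at 55.9 and 48.9 RPKM. Which cells gave the IFNG reads was not tested. Of the members highest in RPKM, ISG12(A), IFI44L and OAS2 were slightly higher in replicate 2, at log2 ratios of 0.28, 0.14 and 0.10. STAT2, PSME2 and DDX58 were slightly lower, at -0.18, -0.21 and -0.24. Of the 27 members with a mean of at least 1 RPKM, 15 were higher in replicate 2 and 12 in replicate 1. Under this filter, 12 of 18 further interferon-stimulated genes were higher in replicate 2 and 6 in replicate 1. Of 9 signalling genes, 6 were higher in replicate 2 and 3 in replicate 1. These shares of 55.6%, 66.7% and 66.7% higher in replicate 2 stand beside 58.0% of all named genes. With 2 pigs, no relation between IFNG and these genes could be tested.

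Of the signalling genes listed beside the members, 9 of 11 were above 0 in both libraries. JAK1 was at 1409 and 1354 RPKM and TYK2, the other kinase of the type I receptor, at 5.88 and 3.48 RPKM, summed over 4 rows. IRF1, a factor induced early by interferon gamma, was at 685.1 and 983.6 RPKM. PIAS1, an inhibitor of STAT signalling, was at 370.5 and 350.4 RPKM, and IL10RB, a receptor chain shared by interferon lambda, at 12.3 and 19.6 RPKM. The feedback inhibitors SOCS1 and SOCS3 were at 1.03 and 1.57 RPKM and at 9.08 and 11.1 RPKM. STAT3 and the receptor gene IFNGR1 were listed at 0. None of the 9 differed at least 2-fold, where 10.7% of named genes did, a share too small to set a list of 9 apart.

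Of the sensing genes, 6 of 10 listed were above 0 in both libraries, 1 in a single library and 3 were listed at 0. TBK1, the kinase that activates IRF3, was at 266.3 and 273.3 RPKM, and MAVS, the adaptor of RIG-I and MDA5, at 66.0 and 61.2 RPKM. TRAF3 at 6.01 and 7.02 RPKM, TLR7 at 4.53 and 5.05 RPKM and TRAF6 at 1.94 and 3.61 RPKM were lower. STING1, the adaptor of DNA sensing, was at 1.40 and 1.48 RPKM. TLR3, TLR9 and MYD88 were listed at 0.

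Of 24 further interferon-stimulated genes with a listed row, 18 were above 0 in both libraries, with medians over the list of 74.0 and 89.8 RPKM. The 5 highest were IFI30, a lysosomal thiol reductase, at 1125 and 1305 RPKM, UBA7, CXCL10, UBE2L6 and the aminopeptidase LAP3 at 919.9 and 939.5 RPKM. Of the 18 with a mean of at least 1 RPKM, 12 were higher in replicate 2 and 6 in replicate 1, or 66.7% higher in replicate 2 against 58.0% of named genes. CXCL9 and ISG20 differed at least 2-fold, both higher in replicate 2, a share of 11.1% that lies near the 10.7% of named genes. CXCL9 was at 55.7 and 132.3 RPKM, CXCL10, a chemokine for the same receptor, at 934.6 and 1276 RPKM, and the exonuclease ISG20 at 40.6 and 84.8 RPKM.

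From the same list, PSMB10, a subunit of the immunoproteasome that PSME1 and PSME2 open, was at 492.3 and 499.0 RPKM, and the subunits PSMB8 and PSMB9 were listed at 0. TAP2 was at 36.2 and 31.4 RPKM and its partner TAP1 was listed at 0. B2M, the light chain of class I molecules, was at 53.3 and 77.4 RPKM.

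**Figure D4:**
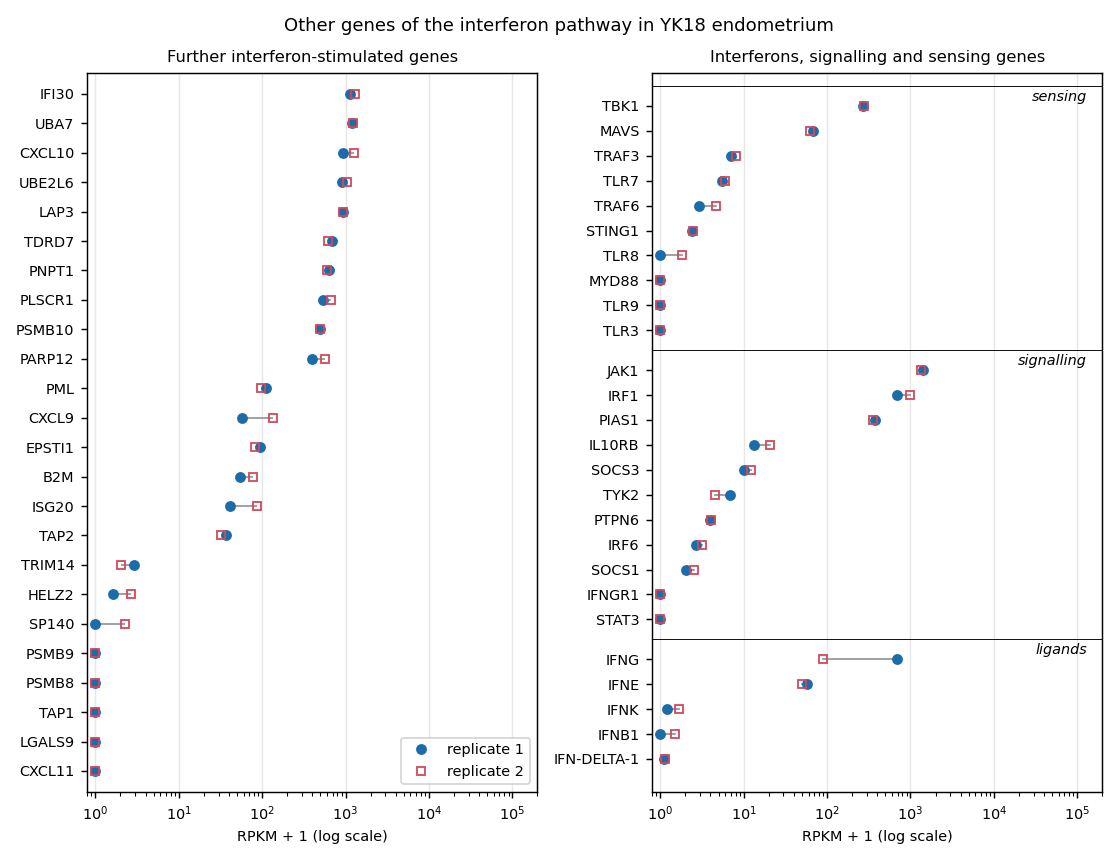
RPKM + 1 on a log scale of further interferon-stimulated genes (left) and of interferon ligands, signalling and sensing genes (right) in the 2 YK18 pigs, with filled circles for replicate 1 and open squares for replicate 2. JAK1 lies furthest to the right at 1409 and 1354 RPKM among the signalling genes, and IFNG shows the widest gap between the pigs.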

How the data were processed

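Endometrium of 2 YK18 pigs was sequenced, with 1 library per pig. Expression was counted by the authors using HTSeq 0.6.1, and the deposited values are RPKM. The aligner, genome build and annotation release are not given in the sources used here.

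Rows were matched to gene symbols by RefSeq accession, version ignored, using RefSeq's Sscrofa11.1 annotation. Of 38222 mRNA rows 16072 (42.0%) had a symbol. Of 49 rows of the members, 27 also matched in version. STING1 was taken under its older symbol. Rows of a gene were summed. Library totals were the largest at which at least 80% of the 100 lowest values were 1 read, and reads came from the smallest length up to 20000 nt with whole reads in both libraries. A simulation of 3000 transcripts gave back both totals, and the length was exact for 82.7%. All simulated lengths were above the smallest lengths found for USP18, PSME1 and EIF2AK2, so it does not cover such rows. Ratios are on the log2(RPKM + 1) scale, for genes with a mean of at least 1 RPKM. Intervals are exact binomial at 95%.

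The members and lists were chosen with earlier results of these data known. Named genes are the 6 highest of each group, members differing at least 2-fold, members with a relative in the list, those listed at 0, and the 5 highest of each further list. EIF2AK2, BST2, ISG15, TYK2, SOCS1, STING1, PSMB10, TAP2, B2M, the genes of the further lists at 0 and the markers were named beyond this rule, after their values were seen. Some pathway genes are not reported here. Python 3.11.15, pandas 2.3.3, numpy 2.4.6, scipy 1.17.1 and matplotlib 3.10.9 were used.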

Additional observations from a re-analysis of the deposited data

How the results depend on the processing

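No paired analysis was possible because YK18 is the only condition analysed here. The planned searches of promoters for interferon response motifs were not run, with no promoter sequence used here.

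With the version number required to match, 19 members were above 0 in both libraries in place of 29. With a mean of at least 1 RPKM, the median level rose from 214.5 to 512.7 RPKM over the members, from 358.0 to 1038 for effectors, from 80.6 to 557.5 for sensors and from 51.3 to 472.6 for regulators, since this leaves out the 9 members listed at 0 as well as IFIT2 and TRIM21. Scaling both libraries to sum to 1000000 gave a median of 50.2 over the members. From 1 replicate alone it was 221.5 or 235.9 RPKM. The median percentile, 83.7, was 86.3 among genes above 0 in both libraries, 78.0 in recovered reads over the library total, and 84.1 to 84.5 without either replicate. The median log2 ratio with no filter was 0.00 for sensors and 0.034 for regulators. ISG15 joined IRF8 and OASL at least 2-fold apart with a pseudocount of 0.1 or 0.01, at log2 ratios of 1.36 and 1.49. The share of named genes at least 2-fold apart rose as well, from 10.7% to 14.7% and 15.1%. IRF8 and OASL differed at least 2-fold under all 7 alternatives, where the share of named genes ran from 4.53%, with both libraries scaled to sum to 1000000, to 15.1%. Rescaling by the median ratio moved the median over the members from 0.07 to -0.02 and over the named genes to -0.01.

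Variation among pigs rests on 2 animals, and ISG15, IFIT2 and TRIM21 rest on few reads, with minimum numbers of 8 or fewer in a library. The lengths behind the RPKM limit every comparison of levels between genes.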

Other observations

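The genes of the interferons themselves were looked at after values had been seen. Of 34 interferon genes in the annotation, 33 were listed, and 22 of these were at 0 in both libraries, all of them of the interferon alpha, delta and omega families. A further 9, with IFN-DELTA-1, IFNB1 and IFNK among them, had minimum reads of 1 to 3 in their higher library and reached no more than 0.749 RPKM. The 2 others were IFNG and IFNE, a type I interferon known to be made by uterine epithelium. IFNE was at 55.9 and 48.9 RPKM, from 213 and 175 reads. These type I interferon genes are close relatives, and how reads shared between them were counted is not given in the sources used here.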
